A study of Mus musculus with 17 samples.

Results

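The genes of cholesterol and fatty acid synthesis were examined in skeletal cells of mice that carry a gain-of-function Cxcr4 allele. The list holds 32 of the 55335 genes counted: 17 enzymes of the sterol pathway, 4 regulators, 9 genes of acetyl-CoA, NADPH and fatty acid synthesis, and 2 of triglyceride synthesis. They were listed by function, with earlier results of these data known, and all 32 passed the filter on low counts in every comparison. The libraries came from osteogenic progenitor cells (OPCs, sorted as Sca-1- CD51+) and skeletal stromal or stem cells (SSCs, sorted as Sca-1+ CD51+ PDGFRα+), both negative for CD45, Ter119 and CD31, from the digested bone fraction. The mice were littermate females of 8 to 12 weeks, either WT, heterozygous (+/1013) or homozygous (1013/1013) for a knock-in that truncates the intracellular tail of the chemokine receptor CXCR4 as in WHIM syndrome, and every cell of a mutant mouse carries the allele. Each library held 3000 cells pooled from 3 mice. The 6 groups had 3 libraries each, apart from 1013/1013 SSCs with 2, which made 17.

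Cells make cholesterol from acetyl-CoA through mevalonate, isoprenoids, squalene and lanosterol, and make fatty acids from the same precursor. The transcription factors SREBP-2 and SREBP-1, encoded by Srebf2 and Srebf1, drive most genes of both pathways. When membrane sterol is low, the escort protein SCAP carries them from the endoplasmic reticulum to the Golgi, where they are cleaved, and INSIG1 holds SCAP back when sterol is plentiful. Osteoblasts and chondrocytes secrete large amounts of matrix through membranes that these lipids build.

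SREBPs act on promoters together with NF-Y, which binds the CCAAT box, and Sp1, which binds GGGCGG. RefSeq start-site windows (GRCm38.p6, 250 bases before to 50 after the start) were at hand for 25 of the 32 members, without Fdps, Fdft1, Sqle, Scd1, Scd2, Dgat1 and Dgat2. On either strand, CCAAT stood in at least 1 window of all 14 sterol enzyme genes with a window, against 41.1% of the 27025 genes searched. GGGCGG stood in 13 of the 14 (92.9%), against 38.2% of genes, and CACGTG, an E-box that SREBP-1 can bind, in 3 (21.4%), against 8.09%. Of all 25 members with a window, 21 (84%) held CCAAT, 20 (80%) GGGCGG and 5 (20%) CACGTG. The core of the classical sterol regulatory element, TCACNCCAC, stood in the window of Hmgcs1 and of no other member, against 1.44% of genes. The stretches upstream of 4 members are shown as far as no annotated exon covers them. Hmgcs1 holds the element. By the main test (edgeR, below), Mvk differed between SSCs and OPCs in WT mice, Hsd17b7 in 1013/1013 mice, and Fasn in both mutants. Capitals mark CCAAT, its reverse complement ATTGG and the sterol element.
Hmgcs1 chr13:119690101-119690350 (+): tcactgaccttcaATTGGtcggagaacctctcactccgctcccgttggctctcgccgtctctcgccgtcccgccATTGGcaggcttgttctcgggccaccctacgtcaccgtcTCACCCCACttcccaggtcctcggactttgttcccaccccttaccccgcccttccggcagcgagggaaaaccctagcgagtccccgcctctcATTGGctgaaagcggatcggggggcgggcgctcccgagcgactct
Mvk chr5:114444061-114444268 (+): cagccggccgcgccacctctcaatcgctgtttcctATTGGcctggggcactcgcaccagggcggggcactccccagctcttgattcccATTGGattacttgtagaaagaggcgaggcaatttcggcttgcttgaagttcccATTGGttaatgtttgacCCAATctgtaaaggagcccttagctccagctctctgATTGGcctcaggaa
Hsd17b7 chr1:169969242-169969408 (-): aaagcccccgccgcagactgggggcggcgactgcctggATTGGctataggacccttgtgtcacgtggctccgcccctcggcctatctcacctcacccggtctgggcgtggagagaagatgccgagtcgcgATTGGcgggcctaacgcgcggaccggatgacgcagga
Fasn chr11:120824548-120824797 (-): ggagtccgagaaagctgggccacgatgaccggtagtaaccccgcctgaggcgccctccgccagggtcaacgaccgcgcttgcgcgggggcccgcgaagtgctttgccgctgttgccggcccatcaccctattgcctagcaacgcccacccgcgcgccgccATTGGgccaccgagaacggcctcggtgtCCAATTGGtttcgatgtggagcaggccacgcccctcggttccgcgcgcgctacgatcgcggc
In Hmgcs1 the sterol element began 137 bases before the start (-137). Mvk held 5 CCAAT boxes, and in Fasn a pair of them overlapped on opposite strands (CCAATTGG). Motifs are matches of letters and say nothing of binding in these cells.

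Between 44217695 and 92683497 counts fell on genes in a library (median 64099849), and a count of 3, taken as the limit of detection for counting error only, stood for 0.0324 to 0.0678 CPM (counts scaled to a fixed library total). The sort and the osteoblast markers matched the labels. Ly6a, which encodes Sca-1, with Pdgfra and Itgav (CD51) summed to 127 to 205 normalized CPM in OPCs and 804 to 1942 in SSCs, and 6 osteoblast markers to 172128 to 534933 and 5706 to 21797. Leukocyte markers, which the CD45 gate should remove, stood high in 3 libraries. The sum of 10 such genes was 10265 normalized CPM in WT OPC replicate 3, 9687 in 1013/1013 OPC replicate 2 and 3454 in WT SSC replicate 3, and at most 883 in the other 14. Of adipocyte markers, which could bring lipid genes with them, 10 genes summed to 29.1 to 121 normalized CPM in OPCs. In SSCs they summed to 75.9 to 178 in WT, 258 to 416 in +/1013, and 802 and 193 in 1013/1013 replicates 1 and 2. Retn had no count in 5 of the 6 groups and Cidec none in 4. 1013/1013 SSC replicate 1 stood apart, with the fewest genes detected (15748) and the largest mitochondrial share (2.36%). Levels below are normalized CPM (CPM after TMM scaling of all 17 libraries), and groups are given as mean ± SD.

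Per kilobase of exon, the desaturase genes led. In WT OPCs Scd2, which encodes a stearoyl-CoA desaturase, stood first of the 32 at 85.2 normalized CPM per kb, followed by Scd1 at 39.8 and Acly, the ATP citrate lyase that makes cytosolic acetyl-CoA, at 31.6. In WT SSCs Acly came first at 32.6, just ahead of Scd2 at 31.2, and the spread between libraries did not part these neighbours. In both mutant SSCs Scd1 led, at 35.3 in +/1013 and 27.0 in 1013/1013. At the low end, Acaca (cytosolic acetyl-CoA carboxylase), Acacb (its mitochondrial form) and Tm7sf2 (a sterol reductase) did not exceed 1.21 per kb in any group. Fdps (farnesyl diphosphate synthase) was also low, at 0.528 to 2.02 per kb, and 26.7% of its exon bases lie also in Gm43738 on the same strand, so reads there cannot be assigned to either gene with certainty.

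**Figure D1:**
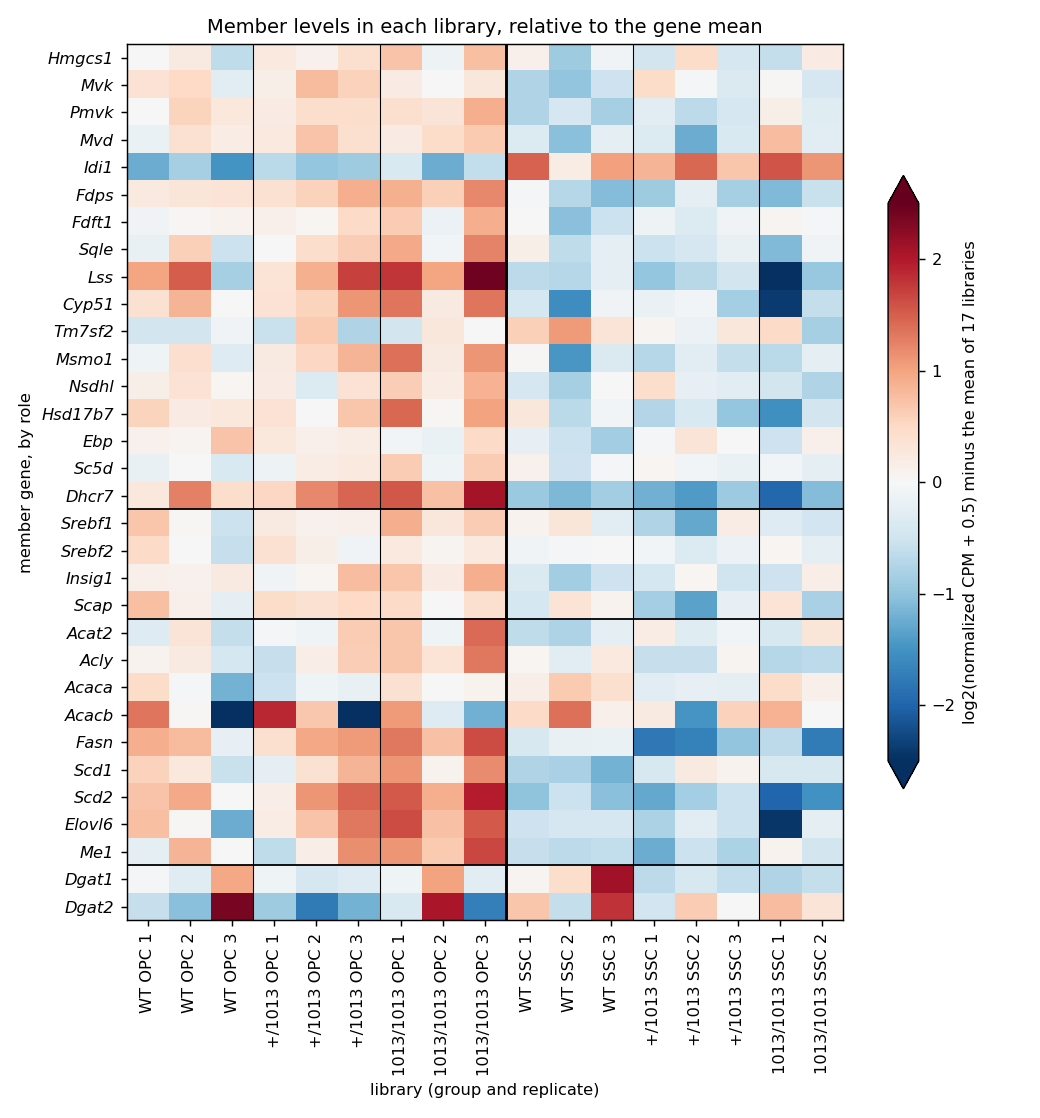
Level of each of the 32 members (rows, by role) in each of the 17 libraries (columns), as log2(normalized CPM + 0.5) minus the mean of the gene over all libraries; the colour scale ends at 2.5 in either direction. Most members are redder in the 9 OPC libraries on the left, Idi1 shows the opposite, and Dgat1 and Dgat2 are high in WT OPC 3, 1013/1013 OPC 2 and WT SSC 3.

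The first question was how the pathway differs between SSCs and OPCs. In WT mice 5 members were lower in SSCs and 1 was higher. Those lower were Dhcr7, Mvk, Pmvk and Ebp of the sterol pathway and Scd2, and the higher one was Idi1. Over all 32 members the median log2 fold change was -0.50, and 25 were below 0, where the median of the 20238 genes tested was 0.17. A gene was called at an adjusted p under 0.05 (Benjamini-Hochberg, over all genes tested by edgeR's quasi-likelihood test) and at least 1.5-fold, which 5.86% of all genes met in the lower and 5.55% in the higher direction. DESeq2's Wald test called 9 members, against 21% of genes. In +/1013 mice 6 members were called lower and 1 higher (6.02% and 6.44% of genes), and DESeq2 called 12 (23.9% of genes). In 1013/1013 mice 10 were called lower and 1 higher (6.12% and 6.94%), and DESeq2 called 18 (28.3%). Members called in the mutants alone, Lss, and values given for members that no test called were named after their values were seen. Of the 15 members called in some genotype, 3 were called in all: Dhcr7, Scd2 and Idi1. In WT mice 12 members had every SSC library below every OPC library (15.7% of genes) and 2 every SSC library above (22.2%). The counts were 14 and 2 in +/1013 (17% and 18.1%) and 19 and 1 in 1013/1013 mice (21.8% and 18.4%). Chondrocyte markers moved with the cell type too. The sum of the 6 was 13503 to 84755 normalized CPM in OPCs and 3349 to 21156 in SSCs, and in OPCs its median was highest in 1013/1013 (72793, against 32747 in WT and 36244 in +/1013). Their part in the differences between SSCs and OPCs was not tested. In bulk libraries less RNA of a gene per cell and fewer cells that express it cannot be told apart.

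**Figure D2:**
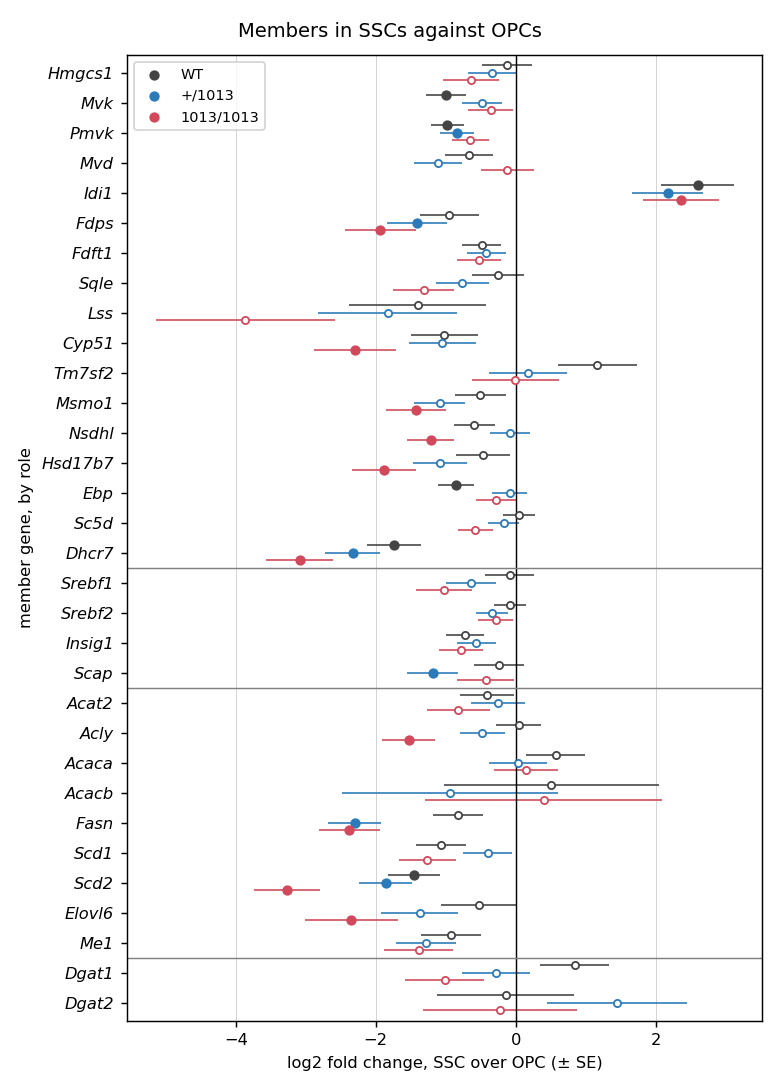
log2 fold change of each member in SSCs over OPCs of the same genotype, with its standard error (bars); filled points were called by edgeR, open points were not. Idi1 lies to the right in all 3 genotypes, at 2.18 to 2.60, and Dhcr7 and Scd2 lie to the left.

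Dhcr7 (mm10 chr7:143823145-143848410) encodes 7-dehydrocholesterol reductase, which makes cholesterol in the last step of its branch. Its level was 27.6, 55.4 and 31.2 normalized CPM in the WT OPC libraries and 11.8, 10.2 and 12.2 in WT SSCs. In +/1013 mice it was 32.9, 53.5 and 63.2 in OPCs and 9.66, 8.24 and 11.9 in SSCs, and in 1013/1013 mice 67.7, 38.3 and 98.9 in OPCs and 5.54 and 10.6 in SSCs. Every OPC library stood above every SSC library. Dhcr7 was 3.33-fold lower in SSCs of WT mice (log2 fold change -1.73 ± 0.38 SE, edgeR adjusted p = 0.0103), 5.02-fold lower in +/1013 (adjusted p = 0.00156) and 8.49-fold lower in 1013/1013 mice (adjusted p = 0.00101). Without WT OPC replicate 2 the WT value was -1.35 (adjusted p = 0.0581).

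Idi1 (chr13:8885501-8892451), the isopentenyl-diphosphate isomerase that makes the second building block of isoprenoids, went the other way. The OPC libraries held 0.754 to 2.19 normalized CPM, and the SSC libraries 9.26, 3.50 and 6.63 in WT, 5.83, 8.97 and 5.15 in +/1013 and 9.96 and 7.08 in 1013/1013 mice. No SSC library overlapped the OPCs. Idi1 was 6.06-fold higher in SSCs of WT mice (2.60 ± 0.52 on the log2 scale, edgeR adjusted p = 0.00525), 4.52-fold in +/1013 and 5.14-fold in 1013/1013 mice (adjusted p = 0.0126 and 0.0119). These are low levels for a gene of the pathway, and 9.22% of its exon bases are shared with the antisense gene Gm48574. Whether counting used the strand is not given in the sources used here. The call in +/1013 mice was lost without OPC replicate 2 (adjusted p = 0.0563), OPC replicate 3 (0.0536) or SSC replicate 2 (0.0509), and that in 1013/1013 mice without SSC replicate 1 (0.0808).

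Mvk, Pmvk and Ebp were the other sterol enzymes called lower in SSCs of WT mice. Mvk and Pmvk encode the kinases that phosphorylate mevalonate in turn. In WT mice Mvk had 15.2 to 26.5 normalized CPM in OPCs and 9.11 to 12.8 in SSCs, which do not overlap (-0.998 ± 0.29 on the log2 scale, edgeR adjusted p = 0.0392). Pmvk had 18.3 to 26.8 and 10.05 to 13.3 (-0.98 ± 0.24, adjusted p = 0.0177), and was also called in +/1013 mice (-0.84, adjusted p = 0.0345). Ebp, a sterol isomerase, was 71.4 ± 19.1 in WT OPCs and 39.6 ± 8.93 in WT SSCs (-0.85 ± 0.25, adjusted p = 0.0454, n = 3 each). Leaving out the 3 libraries rich in leukocyte markers ended the WT calls of Pmvk (-0.91, adjusted p = 0.121) and Ebp (-0.46, 0.364), and kept those of Mvk, Idi1, Dhcr7 and Scd2. Of these 6 WT calls that of Idi1 held when each library was left out in turn. Mvk was lost in 5 of the 6 such fits, all but that without WT OPC replicate 3, with adjusted p up to 0.160. Pmvk was lost without WT OPC replicate 2 or 3 or SSC replicate 1 or 3 (adjusted p up to 0.101), and Ebp without OPC replicate 2 or 3 or SSC replicate 2 or 3 (up to 0.198). In +/1013 mice the call of Pmvk was lost in 5 of 6 such fits, with adjusted p of 0.0606 to 0.12.

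In 1013/1013 mice the sterol enzymes that edgeR called lower were Fdps, Cyp51, Msmo1, Nsdhl and Hsd17b7, besides Dhcr7. In +/1013 mice DESeq2 called Msmo1 and Hsd17b7 too, each 2.12-fold lower by edgeR, and Mvd (2.15-fold). Every +/1013 SSC library lay below every OPC library for each of them. Cyp51, Msmo1, Nsdhl and Hsd17b7 act in the series of steps that strips methyl groups from lanosterol. Hsd17b7, a ketosteroid reductase of that series, had 54.3, 20.1 and 40.1 normalized CPM in 1013/1013 OPCs and 6.53 and 14.2 in SSCs, without overlap. It was 3.68-fold lower in SSCs (edgeR adjusted p = 0.0166). Cyp51, lanosterol demethylase, had 203, 94.1 and 202 in OPCs and 14.9 and 52.9 in SSCs (4.90-fold lower, adjusted p = 0.0199). Msmo1 was 2.69-fold, Nsdhl 2.32-fold and Fdps 3.82-fold lower (adjusted p = 0.0415, 0.0318 and 0.0230). Fdps was also called in +/1013 mice (2.67-fold lower, adjusted p = 0.0448), a call lost in 5 of the 6 fits without a library, with adjusted p up to 0.145. The library that stood apart weighed on these values. Without 1013/1013 SSC replicate 1, 3 members stayed called (Dhcr7, Fasn and Scd2), and the adjusted p of the others ran from 0.0808 for Idi1 to 0.269 for Msmo1. Calls over all genes fell as well, from 13.1% with all libraries to 4.84% in that fit. Without 1013/1013 OPC replicate 3, 5 members and 8.42% of genes were called, and without OPC replicate 1, 7 members and 9.71%. Lss, which closes squalene epoxide to lanosterol, had 64.5, 37.0 and 101 in 1013/1013 OPCs, 9.25 in SSC replicate 2 and 0.0367, under the limit of detection, in SSC replicate 1. edgeR did not call Lss (-3.86 ± 1.28, edgeR adjusted p = 0.0643), and DESeq2 did.

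Among the genes of acetyl-CoA and fatty acid synthesis, 1 of 9 was called lower in SSCs of WT, 2 of +/1013 and 4 of 1013/1013 mice, and none higher. Scd2 (chr19:44293674-44306864), which lies near its paralog Scd1 on chromosome 19, introduces the double bond of oleate and palmitoleate. Its level was 504, 589 and 303 normalized CPM in WT OPCs and 153, 211 and 148 in WT SSCs. In +/1013 mice it was 341, 654 and 836 in OPCs and 126, 170 and 210 in SSCs. In 1013/1013 mice it was 886, 572 and 1200 in OPCs against 76.6 and 108 in SSCs. No SSC library reached the lowest OPC library. The differences were 2.73-fold in WT (edgeR adjusted p = 0.0221), 3.63-fold in +/1013 (0.00545) and 9.63-fold in 1013/1013 mice (0.000593). The WT call was lost without OPC replicate 1 (adjusted p = 0.0506) or 2 (0.0979), or SSC replicate 1 (0.0833) or 3 (0.0815).

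Fasn (chr11:120805846-120824547) encodes fatty acid synthase, which assembles palmitate. It had 161, 149 and 74.3 normalized CPM in WT OPCs and 65.1, 75.3 and 76.3 in WT SSCs, which overlapped, and was not called there (-0.83 ± 0.36, edgeR adjusted p = 0.158). In +/1013 mice it had 113, 169 and 179 in OPCs and 24.5, 26.2 and 42.9 in SSCs, and in 1013/1013 mice 213, 142 and 264 against 54.2 and 25.2. It was 4.93-fold lower in +/1013 (adjusted p = 0.00122) and 5.20-fold lower in 1013/1013 SSCs (0.00334), and both calls held when each library was left out. Acly and Elovl6, the elongase of palmitate, were called by edgeR in 1013/1013 mice alone (-1.53 and -2.35, edgeR adjusted p = 0.0184 and 0.0333). DESeq2 also called Elovl6 in +/1013 mice, where it was 2.59-fold lower by edgeR and every SSC library lay below every OPC library. Elovl6 had 3.83 normalized CPM in 1013/1013 SSC replicate 1 and 19.4 in replicate 2, and its adjusted p was 0.218 without replicate 1.

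Of the 4 regulators edgeR called none in WT or 1013/1013 mice and 1 in +/1013 mice. In WT mice the log2 fold change of SSCs over OPCs was -0.08 for Srebf1 and for Srebf2 (edgeR adjusted p = 0.919 and 0.867), -0.24 for Scap (0.723) and -0.72 for Insig1 (0.109). Without WT OPC replicate 1 the first 3 turned to 0.29, 0.21 and 0.09, and that of Srebf1 was 0.06 without WT SSC replicate 3. Insig1, itself a target of the SREBPs, had 66.6 to 72.6 normalized CPM in WT OPCs and 33.5 to 48.3 in WT SSCs, which did not overlap, and DESeq2 called it (adjusted p = 0.0492). In 1013/1013 mice DESeq2 called Insig1 (-0.78 by edgeR, DESeq2 adjusted p = 0.0491) and Srebf1 (-1.02, 0.0427). The median of the 4 was -0.60 in each mutant, beside -0.77 and -0.65 for the sterol enzymes. Over all genes tested the median was 0 in +/1013 and -0.20 in 1013/1013 mice. Of the 12 tests of regulators, Scap in +/1013 mice was called (-1.19, adjusted p = 0.0462, and 0.0565 without the 3 libraries rich in leukocyte markers, and up to 0.160 in the 5 of 6 fits without a library that lost it). Dgat1 and Dgat2, which add the last fatty acid to triglycerides, were called in no genotype.

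A further 35 genes of lipid handling that are not members were taken for comparison. In WT mice edgeR called 2 lower and 2 higher in SSCs, near its shares of all genes (5.86% and 5.55%). The median log2 fold change of the 35 was -0.10. The lower ones were Tmem97, a sterol-responsive membrane protein (-1.30, edgeR adjusted p = 0.0156), and Fads2, the delta-6 desaturase of polyunsaturated fatty acids (-1.35, 0.0334). The higher ones were Cyp27a1, the sterol 27-hydroxylase that breaks cholesterol down (2.95, 0.0297), and Elovl5, an elongase of polyunsaturated fatty acids (0.97, 0.0279). Cyp27a1 ranged from 2.16 to 10.6 normalized CPM in WT OPCs and from 30.8 to 50.3 in WT SSCs.

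The second question was whether the 1013 allele alters the pathway within a cell type. In OPCs no member was called in +/1013 or 1013/1013 libraries against the same WT libraries, where edgeR called 0% and 0.00617% of the 16207 genes. DESeq2 called no member either, against 0.233% and 0.383% of genes. The members nevertheless stood mostly above WT. In +/1013 OPCs 27 of 32 had a log2 fold change above 0 (49.4% of all genes), with a median of 0.25, and in 1013/1013 OPCs 28 (50.9% of all genes), with a median of 0.59, where the median gene was at -0.0042 and 0.011. Of the 17 sterol enzymes 15 lay above 0 in each mutant, with medians of 0.29 and 0.59, and of the 9 genes of acetyl-CoA and fatty acid synthesis 8 did, with medians of 0.26 and 0.86. All 4 regulators lay above 0, with medians of 0.13 and 0.32 and lowest values of 0.0038 and 0.030. The 35 other lipid genes, of which 21 lay above 0 in each mutant, had medians of 0.08 and 0.07. Members at an unadjusted p under 0.05 numbered 0 in +/1013 (2.04% of genes) and 4 in 1013/1013 OPCs (3.38%). In +/1013 the value leaned on single libraries: without WT OPC replicate 3 the median was 0.085 with 20 members above 0, and without +/1013 OPC replicate 3 it was 0.079 with 21. In 1013/1013 it ran from 0.45 to 0.81 over such fits. Every mutant library lay above every WT library for 1 member in +/1013 (2.82% of genes) and 2 in 1013/1013 OPCs (3.98%), and below for none (2.46% and 3.63%). Fdps did so in both, from 5.15 to 5.49 normalized CPM in WT to 5.70 to 8.43 and 6.72 to 10.4. Acly was the other.

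The 4 members were Msmo1, Elovl6, Sc5d and Acly. Msmo1, a sterol methyl oxidase, had 56.8, 81.5 and 48.3 normalized CPM in WT OPCs and 158, 71.6 and 132 in 1013/1013 OPCs (log2 fold change 0.95 ± 0.33, edgeR adjusted p = 1.00). Elovl6 had 38.8, 23.2 and 9.38 in WT and 72.0, 38.3 and 66.8 in 1013/1013 OPCs (1.31 ± 0.51). Replicates 1 and 3 of 1013/1013 stood above WT and replicate 2 among the WT values in both genes. Sc5d, the sterol desaturase before Dhcr7, had 35.2, 40.1 and 30.8 against 62.0, 37.1 and 62.5, with the same split (0.60 ± 0.24). Acly had 178, 198 and 124 against 272, 213 and 421 (0.86 ± 0.37). The unadjusted p was 0.0200, 0.0328, 0.0351 and 0.0480 in this order, and the edgeR adjusted p was 1.00 for each, so none passed the test over the 16207 genes.

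**Figure D3:**
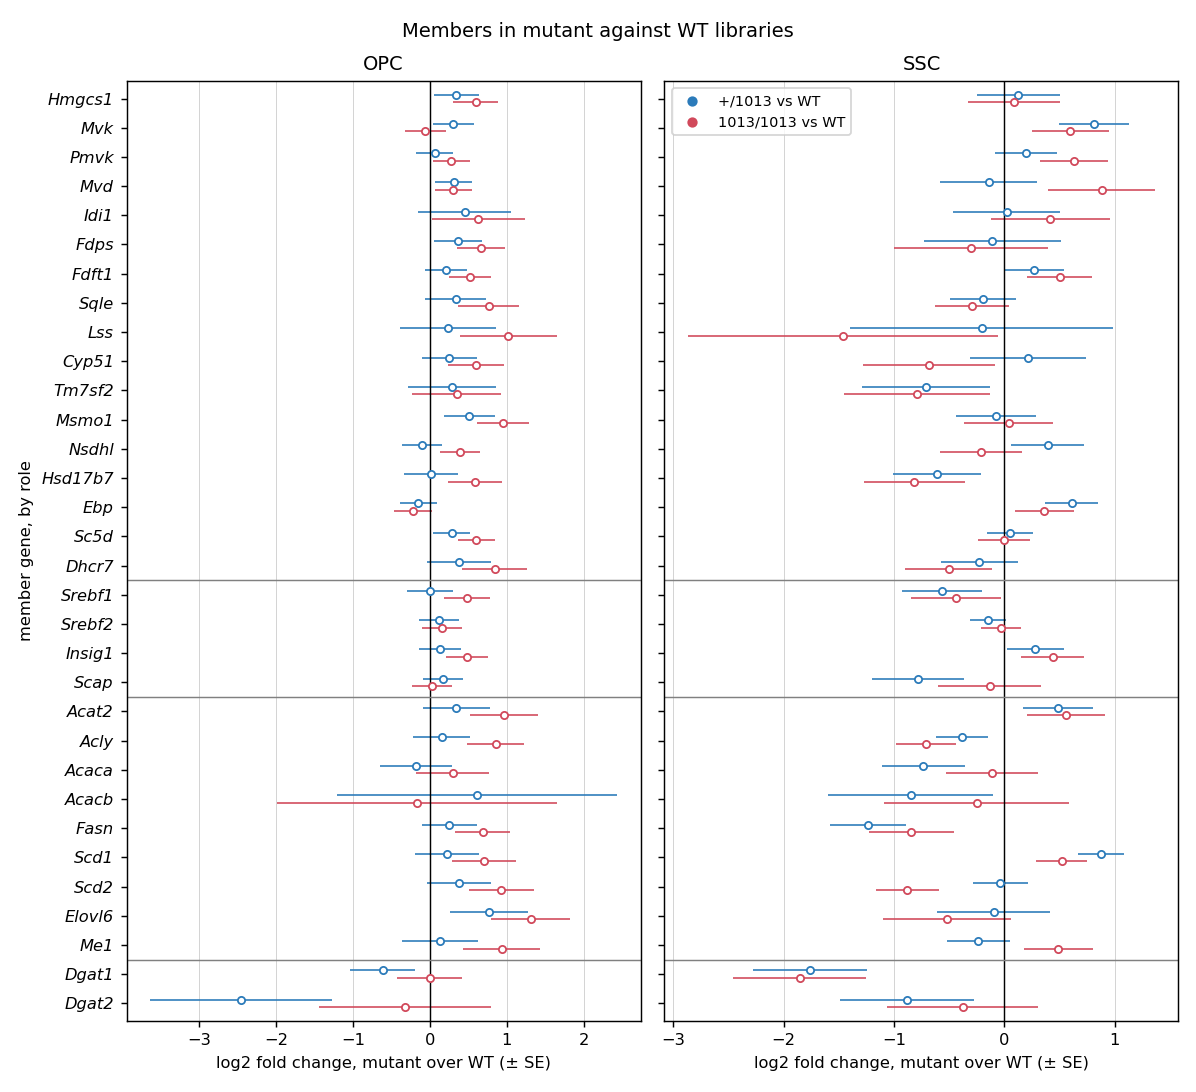
log2 fold change of each member in mutant over WT libraries of OPCs (left) and SSCs (right), with its standard error (bars); all points are open because edgeR called none. In OPCs most points lie right of 0, and the 1013/1013 median is 0.59; in SSCs they lie on both sides.

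The replicates of a genotype also differed among themselves. The median of the 32 members, relative to the WT OPC mean, was -0.03, 0.24 and -0.36 (log2) in the WT libraries, -0.01, 0.21 and 0.45 in +/1013 and 0.81, 0.10 and 0.79 in 1013/1013. Chondrocyte markers moved with it. The sum of 6 of them (Acan, Col2a1, Col10a1, Sox9, Comp and Matn1) was 32747, 46719 and 16685 normalized CPM in the WT libraries, 13503, 36244 and 62701 in +/1013 and 84755, 32337 and 72793 in 1013/1013. In each genotype the library with the highest sum also had the highest member median, and the one with the lowest sum the lowest. Over the 9 OPC libraries Pearson's r of the median with the log2 sum was 0.898 (exact permutation p = 0.00152, two-sided) and Spearman's rho 0.917 (exact permutation p = 0.00131). Adjusted over the 8 marker lists compared, these were 0.0121 and 0.0105. The permutations moved libraries freely across genotypes. Without the 2 libraries farthest from the median sum r was 0.964. With genotype means removed r was 0.912, for which no p was computed. This relation was noticed in the same libraries before it was computed, so its p-values are not those of a planned test. By the sum of leukocyte markers, WT OPC replicate 3 and 1013/1013 OPC replicate 2 formed a cluster of their own. Each had the lowest member median of its genotype, and no plain r over all 9 is given. Spearman's rho over all 9 was -0.883 (exact permutation p = 0.0031, two-sided, and 0.0123 adjusted over the 8 lists). With genotype means removed r over all 9, these 2 included, was -0.911, and no p was computed for it. In the other 7 libraries r of the member median with the leukocyte sum was -0.846 and rho -0.893. Without the 2 farthest of these 7 libraries r was -0.898. No p is given for the 7, because they were chosen after their values were seen. The 7 also pool the genotypes, and no value with genotype means removed was computed for them. The 1013/1013 libraries among them, replicates 1 and 3, had the lowest leukocyte sums and the highest member medians (0.81 and 0.79). Leukocyte transcripts and genotype therefore cannot be told apart in this r. For the other 6 lists the exact permutation p of r was 0.0927 or more. Without the leukocyte-rich libraries the 1013/1013 median was 0.70 and that of +/1013 was 0.09. The part of cartilage and leukocyte transcripts in the differences between genotypes was not tested.

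**Figure D4:**
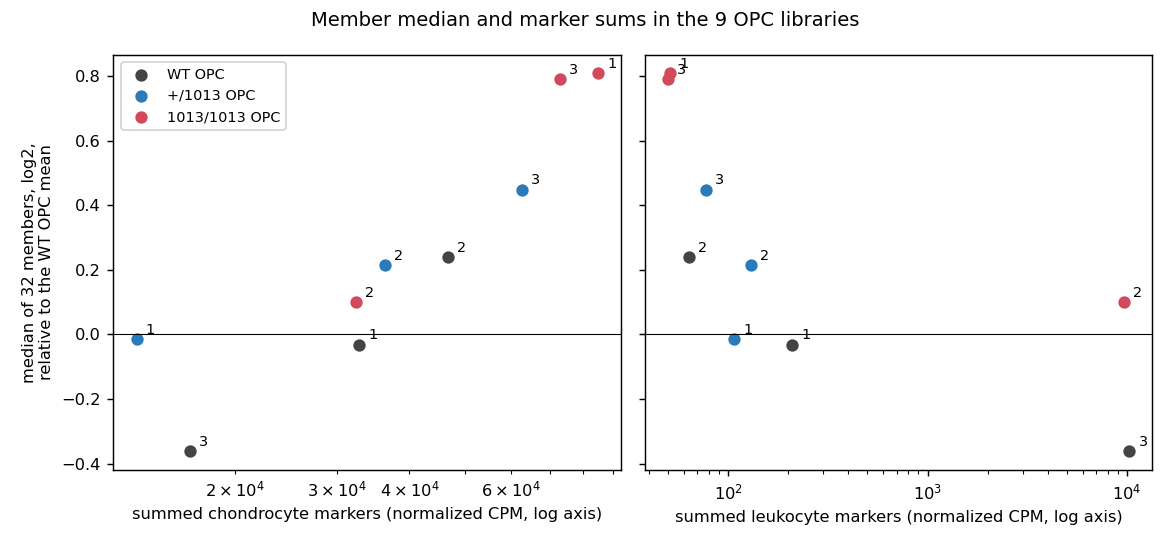
Median of the 32 members in each of the 9 OPC libraries (vertical, log2 relative to the WT OPC mean) against the summed chondrocyte (left) and leukocyte markers (right), both on log axes in normalized CPM; numbers are replicates. The member median follows the chondrocyte sum in all 3 genotypes, and 2 libraries lie far right on the leukocyte axis.

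In SSCs the members moved in both directions. edgeR called none in +/1013 or 1013/1013 against the same WT SSCs, and of the 17659 genes tested it called 0.0736% and 0%. DESeq2 called 4 members in +/1013 (8.15% of genes) and 2 in 1013/1013 SSCs (11.4%). At an unadjusted p under 0.05 there were 5 members in +/1013 (17.3% of genes) and 3 in 1013/1013 SSCs (18.3%). In both comparisons 12 of 32 had a log2 fold change above 0, against 44.8% and 42.1% of genes, and the member medians were -0.12 and -0.17, where all genes had -0.11 and -0.23. In +/1013 SSCs 3 members lay wholly above WT and 4 wholly below (15% and 16.2% of genes), and in 1013/1013 SSCs 4 above and 6 below (16.4% and 24.4%). Without 1013/1013 SSC replicate 2 edgeR called 2 members in 1013/1013 SSCs, but also 14.8% of all genes. The WT SSC libraries also had more reads on no gene, 3.68% to 4.15% against 1.5% to 2.69% in the mutants. This property and the genotype cannot be told apart. The adipocyte marker sum was likewise lower in WT SSCs (75.9 to 178 normalized CPM) than in every mutant SSC library (193 to 802). Its part in these differences was not tested.

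Of the 17 sterol enzymes 9 lay above 0 in +/1013 and 8 in 1013/1013 SSCs, and of the 9 genes of acetyl-CoA and fatty acid synthesis 2 and 3. Fasn and Scd1, which act in sequence, differed in opposite directions. Fasn had 65.1, 75.3 and 76.3 normalized CPM in WT SSCs, 24.5, 26.2 and 42.9 in +/1013 and 54.2 and 25.2 in 1013/1013 SSCs, so every mutant library was below WT. The log2 fold change was -1.24 ± 0.34 in +/1013 (edgeR adjusted p = 0.164, DESeq2 0.0246). Scd1 had 103, 99.0 and 76.6 in WT, 131, 203 and 185 in +/1013 and 132 and 132 in 1013/1013 SSCs, so every mutant library was above WT (0.88 ± 0.21 in +/1013, edgeR adjusted p = 0.141, DESeq2 0.0246). Its paralog Scd2 was lower in 1013/1013 SSCs (-0.88 ± 0.29, edgeR adjusted p = 0.189, DESeq2 0.0495), with 76.6 and 108 against 148 to 211 in WT. Acly was at 102 and 107 against 141 to 200 (-0.71 ± 0.27, edgeR adjusted p = 0.233). In +/1013 SSCs Mvk (0.81 ± 0.32) and Ebp (0.61 ± 0.24) had edgeR adjusted p = 0.260 and 0.261. The fourth member that DESeq2 called in +/1013 SSCs was Acaca.

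Dgat1 showed the steepest of these differences, and it rested in part on a library. It had 40.1, 51.6 and 165 normalized CPM in WT, 24.1, 28.6 and 24.8 in +/1013 and 22.4 and 25.2 in 1013/1013 SSCs. Its log2 fold change was -1.76 ± 0.52 in +/1013 and -1.85 ± 0.60 in 1013/1013 SSCs (edgeR adjusted p = 0.177 and 0.190, DESeq2 0.0223 and 0.0299). Without WT SSC replicate 3, which was rich in leukocyte markers, it was -0.84 and -0.93 (adjusted p = 0.314 and 0.275). The same held in OPCs, where Dgat1 stood at 75.2 and 77.2 in the leukocyte-rich libraries, WT replicate 3 and 1013/1013 replicate 2, and at 28.4 to 37.0 in the other 7. Dgat2 was at 60.5 and 47.6 in these libraries against 2.93 to 8.49, and at 40.3 in WT SSC replicate 3 against 7.23 to 19.6 in the other SSCs.

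**Figure D5:**
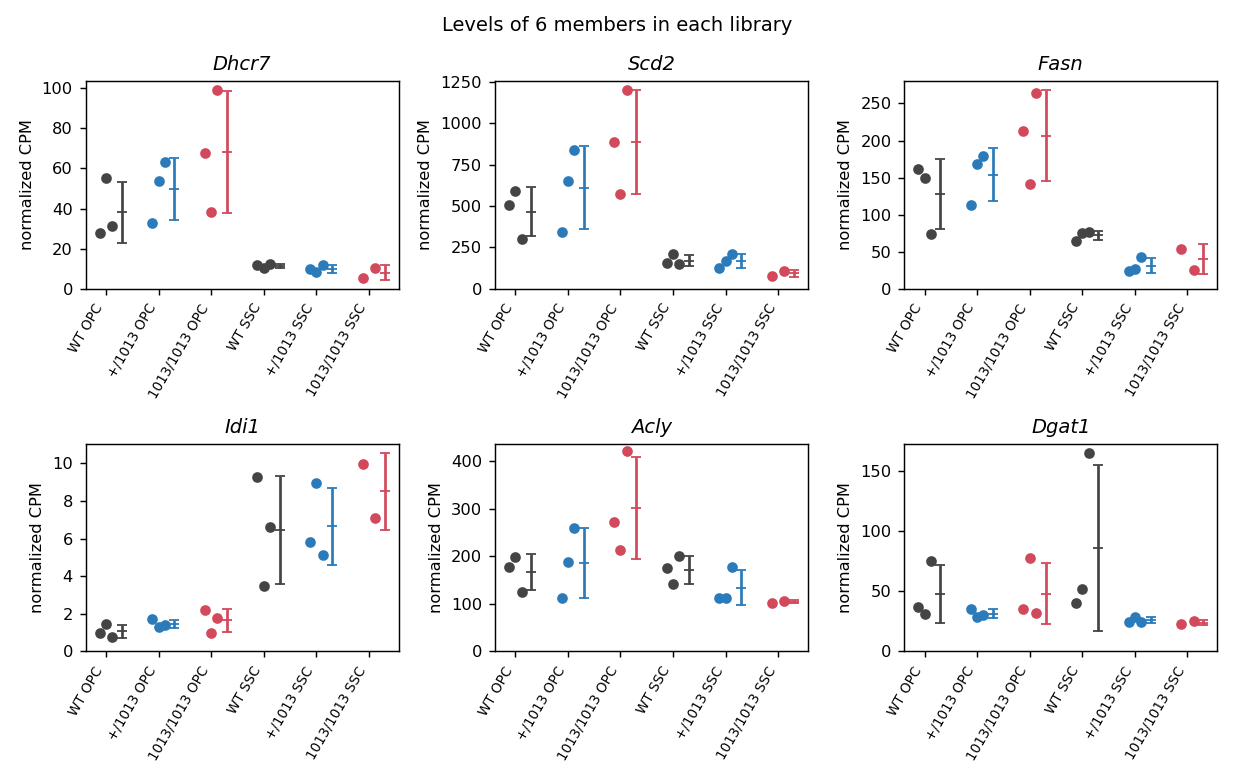
Normalized CPM of 6 members in each library (points) with the mean and SD of the group (bars to the right of the points; n = 3, and 2 in 1013/1013 SSCs); axes start at 0. Dhcr7 and Scd2 stand lower and Idi1 higher in SSCs of each genotype, and Dgat1 has a high point at 165 in WT SSCs.

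The last question was whether the effect of the allele differs between the cell types, tested as a difference of differences over all 17 libraries. edgeR called no member for either genotype, against 0.084% of genes for +/1013 and 0.153% for 1013/1013. DESeq2 called none for +/1013 (2.84% of genes) and Acly and Scd2 for 1013/1013 (7.44%). At an unadjusted p under 0.05 there was 1 member for +/1013 (10.6% of genes), Fasn, at -1.47 ± 0.51 on the log2 scale (edgeR adjusted p = 0.393). For 1013/1013 there were 7 (15% of genes), all with a more negative effect in SSCs than in OPCs. Scd2 had -1.82 ± 0.56 (edgeR adjusted p = 0.188), Acly -1.58 ± 0.49 (0.195), Fasn -1.55 ± 0.55 (0.241) and Dgat1 -1.86 ± 0.75 (0.282). Hsd17b7, Dhcr7 and Elovl6 lay at -1.41, -1.35 and -1.82 (0.294, 0.303 and 0.326). The median over all members was -0.57 for 1013/1013 and -0.43 for +/1013, where all genes had -0.39 and -0.14. Without 1013/1013 SSC replicate 2 edgeR called 2 members and 8.73% of all genes. Elovl6 was among them at -3.40 (adjusted p = 0.0226), a value which then rested on replicate 1, the library that stood apart.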

How the data were processed

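Per the labels and the methods of the study, RNA of each sorted pool was amplified with SMART-Seq v4, made into Nextera XT libraries and sequenced in paired ends. The authors checked reads with FastQC, removed short ones, aligned the rest with STAR to mm10 and counted them per gene with HTSeq. The deposited values are these raw counts, not normalized. Versions, the annotation release and the strand setting are not given in the sources used here. Gene IDs were matched to GENCODE M21 (181 of 55335 were unmatched).

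Counts were tested with edgeR 4.0.16 (R 4.3.3) by the quasi-likelihood test after filterByExpr and TMM scaling, with Benjamini-Hochberg adjustment over all genes tested. Genotypes were compared within a cell type (16207 genes in OPCs, 17659 in SSCs), and cell types and differences of effects over all 17 libraries (20238 genes). SE was the log2 fold change divided by the square root of F. DESeq2 1.42.0, the authors' tool, was an alternative, as were other scalings, filters, sample sets, a replicate block and leaving out each library. Leaving out 3 libraries rich in leukocyte markers was added after the data were seen. The scripts were tested on simulated data. Exact rank or permutation tests of single genes could not go below p = 0.1 (3 against 3) or 0.2 (3 against 2). Pools of mice are the replicates, so p-values measure the spread between pools. No batch is labelled.

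The members and lists were chosen with earlier results of these data known. Named were members called in WT SSCs against WT OPCs, members at an unadjusted p under 0.05 in mutants against WT and in differences of effects (at most 8), the 4 regulators in WT, and other lipid genes called in WT (at most 6).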

Additional observations from a re-analysis of the deposited data

Results flagged for a closer look

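Acly, the ATP citrate lyase, had 1013/1013 libraries on opposite sides of WT in the 2 cell types, although edgeR called the difference from WT in neither (adjusted p = 1.00 in OPCs and 0.233 in SSCs). Every 1013/1013 OPC library (213 to 421 normalized CPM) lay above every WT OPC library (124 to 198), and both 1013/1013 SSC libraries (102 and 107) lay below every WT SSC library (141 to 200). The difference of the effects was -1.58 ± 0.49 on the log2 scale. edgeR's quasi-likelihood test did not call it (adjusted p = 0.195), and DESeq2 did (adjusted p = 0.0398). Over 11 fits that each left out 1 library it ran from -1.78 to -1.23.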

How the results depend on the processing

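The number of members called between SSCs and OPCs depended on the processing, and so did that over all genes. In WT mice 6 members were called (11.4% of all genes), 3 without the filter on low counts (5.16%) and 3 with only the groups compared (15%). In +/1013 mice 7 were called (12.5%), 4 without the filter (5.87%), 11 with at least 10 counts in every library (25.7%) and 12 by DESeq2 (23.9%). In 1013/1013 mice 11 were called (13.1%), 18 by DESeq2 (28.3%) and 1 with only the groups compared (3.14%), a fit with fewer samples. In SSCs, where edgeR called none, DESeq2 called 4 in +/1013 (8.15%) and 2 in 1013/1013 mice (11.4%), and 2 for the difference of 1013/1013 effects (7.44%). The cause was not tested. Member medians moved by less than 1 SD between libraries (0.26, log2) under every alternative, but that of +/1013 against WT OPCs is itself 0.25 and fell to 0.079 without +/1013 OPC replicate 3.

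Leaving out each OPC library in turn gave 5 to 13 calls in 1013/1013 mice (8.42% to 11% of all genes). Leaving out each library gave 1 to 5 in WT (6.68% to 11.5%) and 3 to 6 in +/1013 mice (7.43% to 12%). It gave 0 to 2 for 1013/1013 SSCs against WT and for the difference of 1013/1013 effects, each 2 without 1013/1013 SSC replicate 2 (14.8% and 8.73% of all genes), which leaves a lone library assumed to vary like the others. In WT SSCs against OPCs it gave -0.32 to 0.29 for Srebf1, -0.30 to 0.21 for Srebf2 and -0.43 to 0.086 for Scap. These turned above 0 without WT OPC replicate 1, and Srebf1 also without WT SSC replicate 3 (0.06). Of the planned values of single members 90 lost their call, 9 gained one, 4 turned and 608 did neither.

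With a replicate block, 4 members were called in WT (10.1% of all genes), 4 in +/1013 (11.2%) and 9 in 1013/1013 mice (10.2%). The block ended the calls of Mvk (adjusted p = 0.0643) and Ebp (0.0738) in WT, of Pmvk (0.0577), Fdps (0.0713) and Scap (0.0504) in +/1013, and of Msmo1 (0.085) and Elovl6 (0.0583) in 1013/1013 mice. Same-numbered SSC and OPC libraries of a genotype correlated by -0.0201 to 0.274 (mean 0.0667), those with different numbers by -0.237 to 0.131 (mean -0.0327). In WT the same-numbered pairs were at 0.0818, 0.159 and 0.274, the last being replicate 3, rich in leukocyte markers in both cell types. WT OPC replicate 1 correlated best with SSC replicate 2 (0.131). In +/1013 they were at 0.0408, -0.0201 and -0.00435. With 2 SSC libraries, the 1013/1013 values mirror each other and cannot decide. Whether same-numbered libraries share mice or a sort is not labelled, so the main fits used no pairing and the block is given beside them. Lss in 1013/1013 SSC replicate 1 and Acacb in a WT OPC library fell under the limit of 3 counts.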
